A study of Mus musculus with 8 samples.

Results

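Complement is a cascade of plasma proteins that tags microbes and dying cells for uptake and recruits phagocytes. The classical pathway starts when the recognition molecule C1q, built from the chains C1qa, C1qb and C1qc, binds a target. The alternative pathway starts on the surface itself, where factor B (Cfb) joins an activated fragment of C3 to form the enzyme that cleaves more C3, and properdin (Cfp) holds that enzyme together. Cleavage of C3 and C5 releases the anaphylatoxins C3a and C5a, small peptides that act on macrophages and other leukocytes through the receptors C3ar1 and C5ar1. Most plasma complement comes from the liver, but macrophages make several of the components themselves, C1q and properdin among them.

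The transcripts of these 8 genes, C3, Cfb, Cfp, C5ar1, C3ar1, C1qa, C1qb and C1qc, were followed in RAW264.7 cells, a mouse macrophage-like line, on 8 one-colour arrays, 2 in each of 4 groups. The groups were shDab2 cells with LPS for 6 h, shDab2 cells with PBS, shLuc cells with LPS for 6 h and shLuc cells with PBS. All were stable lines made by lentiviral infection and puromycin selection, shDab2 with an shRNA against the endocytic adaptor Dab2 and shLuc with one against luciferase. The arrays covered 1 of the shRNAs against Dab2 that the study used, clone B, and LPS was given at 100 ng/ml. The members were taken by gene symbol in the array annotation, in which 7 of the 8 genes had a probe, 1 probe each, among 19084 genes and 26423 probes. C3 is the exception and was not analysed here. Neither the labels nor the methods say whether the arrays of a group came from separate cultures, and the p-values reflect nothing beyond array-to-array spread, which may be technical.

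Intensities are given after quantile normalization between the 8 arrays, on a linear scale, and 50 is taken as the background level. A log2 fold change refers to log2(intensity + 50), so that for dim genes it understates the ratio of intensities. A gene was called changed at an adjusted p under 0.05 from limma, with the Benjamini-Hochberg adjustment over all probes. The deposited 75th percentiles, before normalization, ran from 209 to 319, and within a group the arrays correlated across probes with r between 0.995 and 0.996 on the log2 scale. Of the macrophage markers, all 7 measured were at or above 50 on all 8 arrays, whereas the 4 hepatocyte, 4 fibroblast and 3 epithelial markers measured lay under 50 on all 8. These markers moved in both directions. Between the lines with LPS, Adgre1, which encodes F4/80, and the Fc receptor gene Fcgr1 were higher in shDab2 cells (log2 fold changes 2.08 and 0.49), whereas the growth factor receptor gene Csf1r and the lysosomal gene Cd68 were lower (-0.64 and -0.40). With LPS in shDab2 cells, Adgre1 and Itgam rose (0.99 and 1.63), and Csf1r and Cd68 were again lower (-0.84 and -0.51). With LPS in shLuc cells, Adgre1 and Itgam also rose (0.37 and 1.06), and Csf1r and Fcgr1 fell (-0.44 and -0.68). Between the lines with PBS, Adgre1 was likewise higher in shDab2 cells (1.46) and Itgam was lower (-0.44), and the other macrophage markers were not called. The LPS co-receptor gene Cd14 was at 51011 and 19250.2 on the arrays of shLuc cells with LPS, which differed widely from each other. Of the 4 lymphocyte markers measured, 2 lay under 50 on all arrays. Of the others, Cd3e lay between 51.9 and 102.75 on all 8 and Cd79a reached 50 on 6. Cd79a was called higher with LPS in shDab2 cells (0.54, limma's adjusted p = 0.00818). The summed level of the list ran from 141 to 232 in shDab2 cells with LPS, 119 to 126 in shDab2 cells with PBS, 139 to 156 in shLuc cells with LPS and 124 to 131 in shLuc cells with PBS. The part of these shifts in the complement results was not tested. As the RNA came from whole cultures, fewer cells that express a gene and less of its RNA per cell cannot be told apart. Dab2 itself was read by 1 dim probe at 39.1 and 34.75 in shDab2 cells with LPS, 59.1 and 76 in shDab2 cells with PBS, 52.25 and 72.4 in shLuc cells with LPS and 91.1 and 88.1 in shLuc cells with PBS. It was lower in the shDab2 arrays in both comparisons between the lines, but neither difference was called (adjusted p = 0.0577 with LPS and 0.26 with PBS). With LPS against PBS, Dab2 was called lower in shDab2 cells (log2 fold change -0.43, limma's adjusted p = 0.0171) but not in shLuc cells (-0.32, adjusted p = 0.0793). The study itself reports, from a Western blot, that Dab2 protein was decreased in the clone B line against shLuc cells. That is a measure of protein, whereas the probe reads RNA.

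Cfb, Cfp and C3ar1 were at or above 50 on all 8 arrays and C5ar1 on 6 of them, whereas C1qa, C1qb and C1qc were under 50 on every array. With LPS, 4 of the 7 genes rose in shDab2 cells and none fell, where 13.4% of all genes rose and 18.0% fell. In shLuc cells the same 4 rose, Cfb close to the threshold, and none fell, where 11.6% of all genes rose and 15.7% fell. Of the 19084 genes, 8756 lay under 50 on all arrays, and these also count in such shares. Between the lines with LPS, 1 of the 7 was higher and 2 were lower in shDab2 cells, where 9.07% of all genes were higher and 11.6% lower. With PBS none was higher and 1 was lower, against 5.65% and 6.40% of all genes, and without normalization between arrays 2 were higher and none lower. The median log2 fold change of the 7 genes was 0.52 with LPS in shDab2 cells and 0.23 in shLuc cells, and it was 0.01 between the lines with LPS and -0.11 with PBS. Over all genes these medians lay between -0.01 and 0.00.

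**Figure D1:**
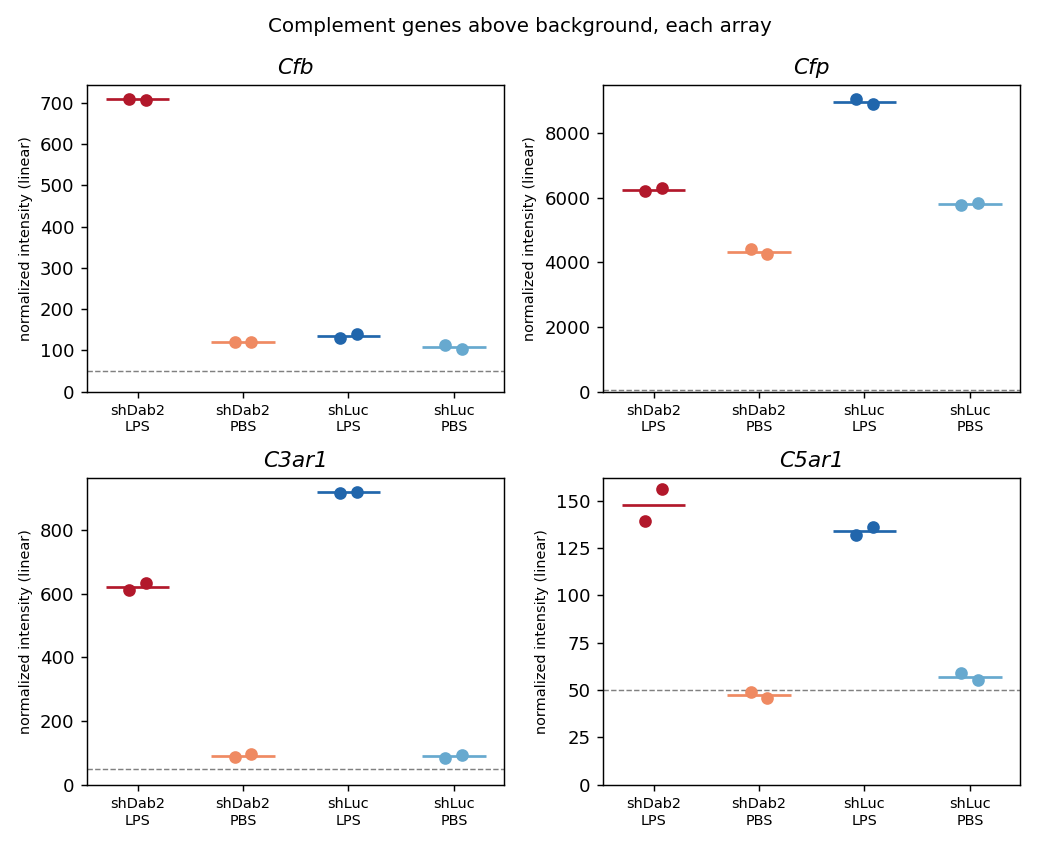
Normalized intensity (linear axis from 0) of Cfb, Cfp, C3ar1 and C5ar1 on each of the 8 arrays, with points for arrays, short lines for the mean of the 2 arrays of a group and a dashed line at the background level of 50. Cfb stands at 711 and 707.5 in shDab2 cells with LPS and at no more than 140.5 on any other array, whereas C3ar1 is high on all 4 arrays with LPS.

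The windows around the start sites of 3 genes that rose with LPS in both lines, by differing amounts, are shown here. They run from 250 bases before the start to 50 after it and come from RefSeq on GRCm38.p6, which gave such a window for 6 of the 8 genes, all but Cfb and C1qa. Capitals mark matches, on either strand, to the NF-kB-like letters GGGNNNNNCC, the ISRE-like letters GAAANNGAAA, the GAS-like letters TTCNNNGAA, the PU.1-like letters GAGGAA and the TATA box TATAAA, where N is any base. All 3 windows are printed 5′ to 3′ on the minus strand, the strand of the genes.
C3ar1, chr6:122856108-122856407: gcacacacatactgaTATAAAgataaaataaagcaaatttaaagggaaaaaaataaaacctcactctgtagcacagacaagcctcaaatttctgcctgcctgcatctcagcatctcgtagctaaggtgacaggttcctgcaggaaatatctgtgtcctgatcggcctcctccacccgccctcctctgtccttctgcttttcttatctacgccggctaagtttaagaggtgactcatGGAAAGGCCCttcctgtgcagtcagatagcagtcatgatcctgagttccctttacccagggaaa
C5ar1, chr7:16259289-16259588: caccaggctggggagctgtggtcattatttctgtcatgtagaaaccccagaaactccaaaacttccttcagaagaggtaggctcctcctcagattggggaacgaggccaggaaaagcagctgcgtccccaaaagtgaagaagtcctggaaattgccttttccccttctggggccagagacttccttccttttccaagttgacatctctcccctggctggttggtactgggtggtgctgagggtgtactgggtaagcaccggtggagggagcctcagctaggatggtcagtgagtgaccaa
Cfp, chrX:20931506-20931805: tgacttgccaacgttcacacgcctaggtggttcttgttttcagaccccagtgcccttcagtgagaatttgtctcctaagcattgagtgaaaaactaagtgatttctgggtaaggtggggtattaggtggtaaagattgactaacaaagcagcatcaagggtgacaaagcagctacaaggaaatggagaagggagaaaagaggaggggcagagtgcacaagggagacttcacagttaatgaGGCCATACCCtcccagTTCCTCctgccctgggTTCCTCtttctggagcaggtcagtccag

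The C3ar1 window held 1 NF-kB-like match, at position -14 from the start, and 1 TATA box match at -235. The Cfp window held 1 NF-kB-like match at -10 and 2 PU.1-like matches at 7 and 23, within the transcribed part. The C5ar1 window held no match to any of the 5. Its start site lies inside the gene, whose annotated 5′ end is at 16259540, so most of this window falls within the gene. The start sites of the C3ar1 and Cfp windows are at the annotated 5′ ends of their genes, so the 3 windows are not alike in this. The shares of all 32851 windows with a match were 50.8% for the NF-kB-like letters, 28.3% for the PU.1-like letters, 13.6% for the TATA box, 8.30% for the GAS-like letters and 3.44% for the ISRE-like letters, so the first of these is a common feature. None of the 3 windows held an ISRE-like or GAS-like match. The matches overlap no other match in these windows, they are descriptions of letters, and binding was not measured. Of the windows not shown, those of C1qb and C1qc, genes at background, also held NF-kB-like and PU.1-like matches. That of C3, for which the array annotation names no probe, held NF-kB-like and TATA box matches.

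Cfb, the serine protease of the alternative pathway C3 convertase, lies on chromosome 17 of GRCm38 from 34856374 to 34862514. Its intensity was 711 and 707.5 in shDab2 cells with LPS, against 120.1 and 121 in shDab2 cells with PBS. In shLuc cells it was 129.5 and 140.5 with LPS, against 112 and 104 with PBS. Cfb was thus high in 1 group alone, and the other 6 arrays lay within 104 to 140.5. In shDab2 cells it rose 5.88-fold with LPS, or 2.15 ± 0.07 on the log2 scale (± standard error here and below, adjusted p = 1.94e-09). In shLuc cells it rose 1.25-fold, or 0.23 ± 0.07 (adjusted p = 0.0489). This last call was narrow and was lost when any of the 8 arrays was left out (adjusted p from 0.0567 to 0.229), with the replicate number as a block (0.0692), with only the 4 arrays of the comparison (0.115) and without normalization between arrays (log2 fold change 0.07, adjusted p = 0.614).

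Between the lines with LPS, mean Cfb was 709 ± 2.3 in shDab2 and 135 ± 7.78 in shLuc cells (SD, n = 2 arrays each), a log2 difference of 2.04 ± 0.07 (adjusted p = 5.12e-08). By this fold change it ranked 26 of 19084 genes. With PBS the log2 fold change of shDab2 over shLuc cells was 0.11 with a 95% interval from -0.05 to 0.27 (adjusted p = 0.492). Without normalization between arrays it was 0.38 (adjusted p = 0.00343), in a setting that shifted the median of all probes by 0.11. The response of Cfb to LPS differed between the lines by 1.93 ± 0.10 on the log2 scale (adjusted p = 2.89e-06), and this difference was called under every alternative that was run, at 1.74 to 2.24. In this test of the difference 1 of the 7 genes was higher and 1 lower, where 2.72% and 3.08% of all genes were. C2, the classical pathway counterpart of factor B, is separated from Cfb by 87 bases, and its probe lay between 23.1 and 42.5, under 50 on every array.

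Cfp encodes properdin, the stabilizer of the same convertase, on chromosome X from 20925454 to 20931555. Its intensity was 6203 and 6308 in shDab2 cells with LPS, against 4406 and 4270.5 in shDab2 cells with PBS. It was 9049.6 and 8922 in shLuc cells with LPS, against 5786 and 5836 in shLuc cells with PBS. The 4 groups did not overlap, and both shDab2 groups lay below the shLuc group of the same treatment. With LPS Cfp rose by 0.52 ± 0.05 on the log2 scale in shDab2 cells (adjusted p = 1.18e-05) and by 0.62 in shLuc cells (adjusted p = 4.72e-06). The 2 responses differed by -0.10, with a 95% interval from -0.26 to 0.06 (adjusted p = 0.586). When compared to shLuc cells, Cfp was lower in shDab2 cells, at log2 fold changes of -0.52 with LPS (adjusted p = 4.23e-05) and -0.42 with PBS (adjusted p = 0.000452). The difference with PBS depended on the normalization, since it was -0.14 (adjusted p = 0.0796) on the values as deposited.

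Factor B and properdin, which serve the same enzyme, therefore stood on opposite sides of the comparison between the lines with LPS, with Cfb 5.25-fold higher and Cfp 1.44-fold lower in shDab2 cells.

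**Figure D2:**
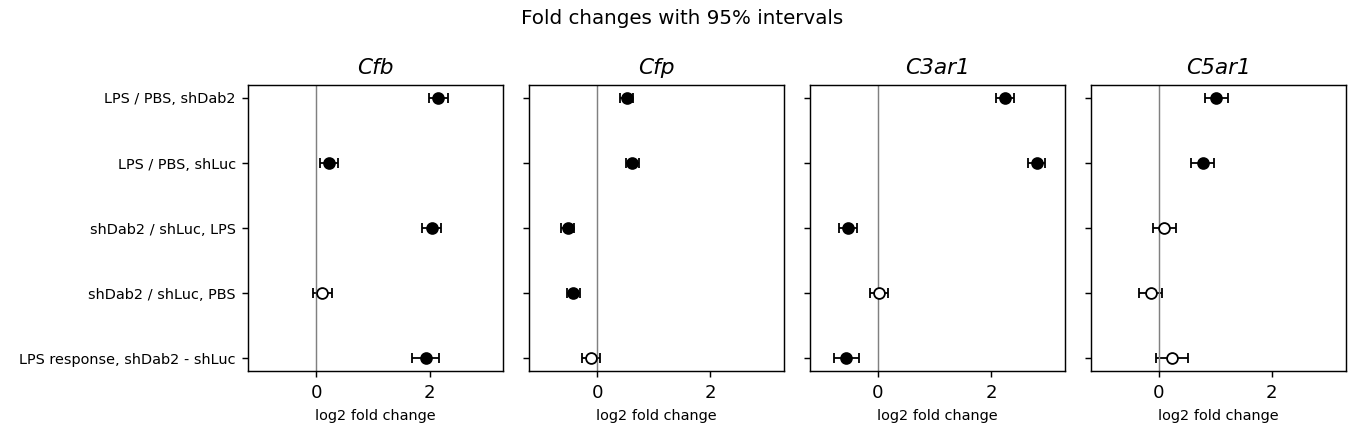
Log2 fold changes of Cfb, Cfp, C3ar1 and C5ar1 (horizontal axis) in the 5 comparisons (rows), with 95% intervals from limma and filled points for calls at an adjusted p under 0.05. Cfb is far from 0 in shDab2 cells with LPS and in the difference of responses, and C3ar1 has its highest value, 2.80, for LPS in shLuc cells.

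C3ar1, the G protein-coupled receptor for C3a, lies on chromosome 6 from 122847140 to 122856157. Its intensity was 611 and 633 in shDab2 cells with LPS, against 86.6 and 96.5 in shDab2 cells with PBS. In shLuc cells it was 915 and 920.4 with LPS, against 84.4 and 93.4 with PBS. Both lines started from overlapping levels and rose with LPS, and the shLuc arrays with LPS lay above the shDab2 arrays with LPS. The log2 fold change with LPS was 2.25 ± 0.07 in shDab2 cells (adjusted p = 1.03e-09) and 2.80 in shLuc cells (adjusted p = 3.45e-10), which was 6.80-fold and 10.3-fold in intensity. In shLuc cells C3ar1 ranked 39 of 19084 genes by this fold change. Set against shLuc cells, shDab2 cells with LPS had less C3ar1, at -0.53 ± 0.07 on the log2 scale (adjusted p = 0.000377). With PBS the difference was 0.03, with a 95% interval from -0.13 to 0.18 (adjusted p = 0.904), whereas it was 0.28 (adjusted p = 0.0203) without normalization between arrays. The responses of the lines differed by -0.55 ± 0.10 (adjusted p = 0.00937), a call that was lost with a floor of 50 in place of the added 50 (-0.60, adjusted p = 0.103).

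C5ar1, the receptor for C5a, lies on chromosome 7 from 16246743 to 16259540 and was dim. Its intensity was 139 and 156 in shDab2 cells with LPS, against 48.75 and 46 in shDab2 cells with PBS. It was 132 and 136 in shLuc cells with LPS, against 59.1 and 55.1 in shLuc cells with PBS. All 4 arrays with LPS lay above the 4 with PBS, and both shDab2 arrays with PBS were at background. In shDab2 cells C5ar1 was at least 2.96-fold higher with LPS, with 50 taken for the arrays under it (log2 fold change 1.02 ± 0.09, adjusted p = 5.31e-06). In shLuc cells it was 2.34-fold higher (log2 fold change 0.78, adjusted p = 7.21e-05). The lines were not called different with LPS (log2 fold change 0.10, 95% interval -0.10 to 0.31, adjusted p = 0.55) or with PBS (-0.14, 95% interval -0.34 to 0.06, adjusted p = 0.48). The difference in response was 0.24 with a 95% interval from -0.05 to 0.53 (adjusted p = 0.421). The 2 anaphylatoxin receptors thus both rose with LPS in each line, and only that of C3a was called different between the lines with LPS.

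**Figure D3:**
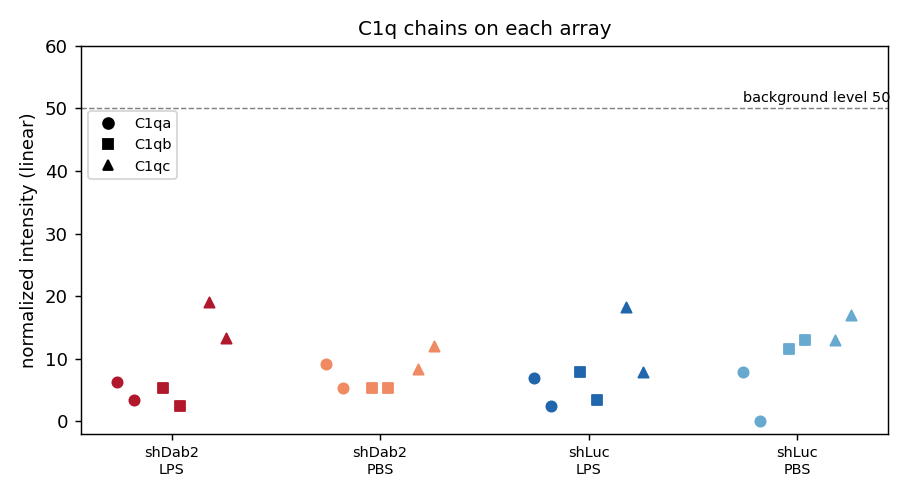
Normalized intensity (linear axis) of C1qa (circles), C1qb (squares) and C1qc (triangles) on each of the 8 arrays by group, with a dashed line at the background level of 50. Every point lies at or under 19.0, and the highest C1qb points are those of shLuc cells with PBS, at 11.6 and 13.

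The C1q genes lie side by side on chromosome 4, in the order C1qb, C1qc and C1qa, within 18719 bases that hold no other annotated gene. All 3 were at background in all 4 groups. C1qa, which encodes the A chain, was at 6.25 and 3.38 in shDab2 cells with LPS, 9.13 and 5.38 in shDab2 cells with PBS, 6.88 and 2.38 in shLuc cells with LPS and 7.88 and 0 in shLuc cells with PBS. C1qb, which encodes the B chain, was at 5.38 and 2.38 in shDab2 cells with LPS, 5.38 and 5.38 in shDab2 cells with PBS, 7.88 and 3.38 in shLuc cells with LPS and 11.6 and 13 in shLuc cells with PBS. C1qc, which encodes the C chain, lay between 7.88 and 19.0 over the 8 arrays. The C1qb arrays of shLuc cells with PBS lay above all others (adjusted p = 0.196 for shDab2 against shLuc cells with PBS and 0.136 for LPS in shLuc cells), whereas no group lay above or below all others for C1qa or C1qc. No C1q gene was called in any of the 5 comparisons, and with both groups at background no fold is given. At this signal, under the level of 50, a change in C1q transcripts may have been missed. What else these probes would detect is not known from the files.

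Each measured member above background was set against the 9504 other genes with a mean intensity of at least 50, by the root mean square distance between their log2 values over the 8 arrays after each was centred on its own mean. The profile of Cfb, which itself varied with a root mean square of 0.94, was nearest to those of Phf11a (distance 0.10), Il1bos, annotated on the strand opposite to Il1b (0.14), and the chemokine gene Ccl22 (0.16). Phf11a had a log2 fold change of 2.05 and Ccl22 of 1.80 between shDab2 and shLuc cells with LPS, against 2.04 for Cfb. Phf11a belongs to a family of similar genes, and which of them its probe measures is not known here. The profile of C3ar1 was nearest to those of Agpat4 (0.10), Bcar3 (0.17) and the AP-1 subunit gene Fosl1 (0.18). That of Cfp was nearest to Wsb1 (0.06), Msantd3 (0.06) and Qsox2 (0.06), and that of C5ar1 to Ppp1r11 (0.04), Plpp5 (0.05) and Cldnd1 (0.05). No gene was thus among the 3 nearest of more than 1 member.

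**Figure D4:**
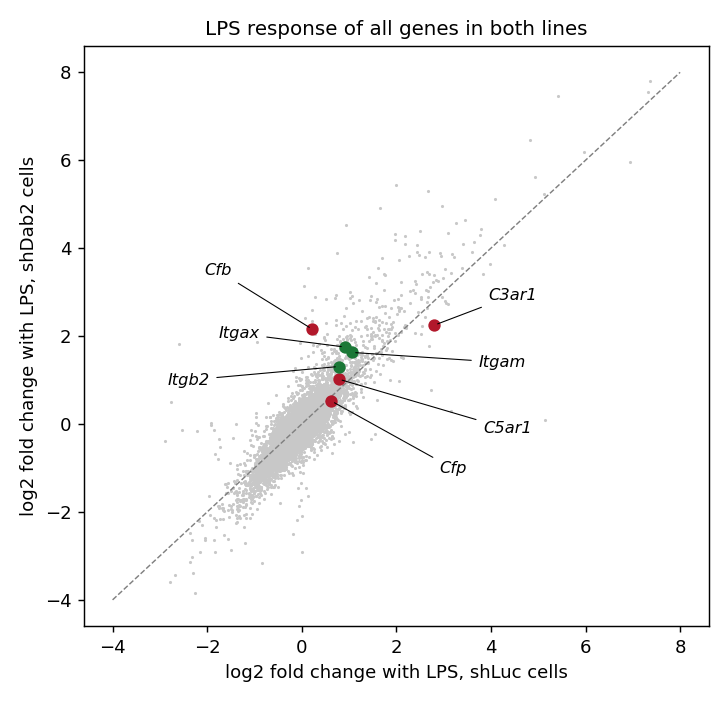
Log2 fold change with LPS in shDab2 cells (vertical axis) against that in shLuc cells (horizontal axis) for 19084 genes (grey), with the 4 complement genes above background in red, the complement receptor integrins Itgax, Itgam and Itgb2 in green and a dashed line where the values are equal. Cfb (2.15 in shDab2 and 0.23 in shLuc cells) lies above the line and C3ar1 (2.25 and 2.80) below it.

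The rest of the complement system was taken from a list of 49 symbols, of which 38 had a probe. Of these 38, 23 lay under 50 on all arrays, among them C2, C6, C9, Cfi, Cd55, Serping1, C5ar2, Cr2 and Vsig4, and 13 were at or above 50 on all 8. With LPS, 6 of the 38 rose and 1 fell in shDab2 cells, and 7 rose and 3 fell in shLuc cells, where 13.4% of all genes rose and 18.0% fell in shDab2 cells and 11.6% rose and 15.7% fell in shLuc cells. On the values as deposited these counts were 5 and 10 in shDab2 cells. By role, 4 of the 8 measured receptors rose with LPS in shDab2 cells, among them Cd93, at background in both groups, and 5 rose in shLuc cells, and none fell in either. Of the 13 regulators, 1 rose and 1 fell in each line, and of the 10 initiators of the classical and lectin pathways 1 rose in shDab2 cells and 2 fell in shLuc cells. Of the 7 terminal components none was called in shDab2 cells and 1, C7, in shLuc cells. Between the lines, 4 were higher and 3 lower in shDab2 cells with LPS, and 2 were higher and 2 lower with PBS, where 9.07% of all genes were higher and 11.6% lower with LPS and 5.65% higher and 6.40% lower with PBS. On the values as deposited, 13 were higher and 1 lower with PBS. The median log2 fold change was 0.01 with LPS in shDab2 cells and 0.03 in shLuc cells, and 0.00 between the lines with LPS and 0.04 with PBS. C7 had more than 1 probe. The brighter one, which gave the call, lay between -4 and 9.13 on the 8 arrays, so no fold is given for it. Its other probe, also under 50 on all arrays, was not called for LPS in shLuc cells (limma's adjusted p = 0.789).

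Among receptors, the integrin subunits of complement receptors CR3 and CR4, which bind the C3 fragment iC3b, rose with LPS in both lines. Itgax, the alpha chain of CR4, was at 919 and 902 in shDab2 cells with LPS, against 219 and 253 in shDab2 cells with PBS. It was at 174.5 and 155 in shLuc cells with LPS, against 70.25 and 58.1 in shLuc cells with PBS. It was higher in the shDab2 line under both treatments, with log2 fold changes of 2.16 with LPS (adjusted p = 7.33e-08) and 1.32 with PBS (adjusted p = 6.85e-06). Itgam, the alpha chain of CR3, was at 2627 and 2743 in shDab2 cells with LPS, against 855.5 and 814 with PBS. In shLuc cells Itgam was at 2605 and 2319 with LPS, against 1184 and 1116 with PBS. Its log2 fold change with LPS was 1.63 in shDab2 cells (adjusted p = 8.73e-09) and 1.06 in shLuc cells (adjusted p = 5.33e-07), and with PBS it was lower in shDab2 than in shLuc cells (-0.44, adjusted p = 0.00173). Itgb2, their shared beta chain, was at 2261 and 2205 in shDab2 cells with LPS, against 894 and 850 with PBS, and in shLuc cells at 1881 and 1711 with LPS, against 1070 and 973 with PBS. Its log2 fold change with LPS was 1.31 in shDab2 cells (adjusted p = 5.06e-08) and 0.78 in shLuc cells (adjusted p = 5.84e-06). The responses differed between the lines by 0.84 for Itgax, 0.56 for Itgam and 0.52 for Itgb2 (adjusted p = 0.00304, 0.00602 and 0.0088), and none of the 3 was called with a floor of 50 in place of the added 50 (adjusted p from 0.101 to 0.322).

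Cd93, a receptor once described as binding C1q, was at 30.9 and 32.5 in shDab2 cells with LPS, under background, and at 62.4 and 68.5 in shLuc cells with LPS, and at most 14.6 with PBS in either line. In shLuc cells it was at least 1.31-fold higher with LPS (log2 fold change 0.90, adjusted p = 3.11e-05). Among regulators, Cd59a, the membrane inhibitor of the terminal pore, was at 302.5 and 289 in shDab2 cells with LPS, against 99.3 and 90 with PBS, and in shLuc cells at 284 and 241 with LPS, against 93.4 and 80.8 with PBS. It rose with LPS by 1.26 on the log2 scale in shDab2 cells (adjusted p = 1.05e-06) and 1.19 in shLuc cells (adjusted p = 3.04e-06). The lines were not called different with LPS (0.15, adjusted p = 0.349). C1qbp, a mitochondrial protein named for its binding of C1q, was at 8080 and 9076 in shDab2 cells with LPS, against 12108 and 12343 with PBS. It fell by 0.51 on the log2 scale with LPS in shDab2 cells (adjusted p = 0.00011), a call that was lost under scaling of each array to the same 75th percentile (-0.16, adjusted p = 0.156). In shLuc cells C1qbp was at 10057 and 10079 with LPS, against 12692 and 11910 with PBS, and was also called lower (-0.29, adjusted p = 0.00835). The 2 responses were not called different (adjusted p = 0.272). Among initiators, Fcna, a ficolin of the lectin pathway, was lower in shDab2 than in shLuc cells. It was at 104 and 106.5 against 173 and 184 with LPS (log2 fold change -0.56, adjusted p = 0.000534) and 121 and 135 against 241 and 246 with PBS (-0.72, adjusted p = 0.000217).

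**Figure D5:**
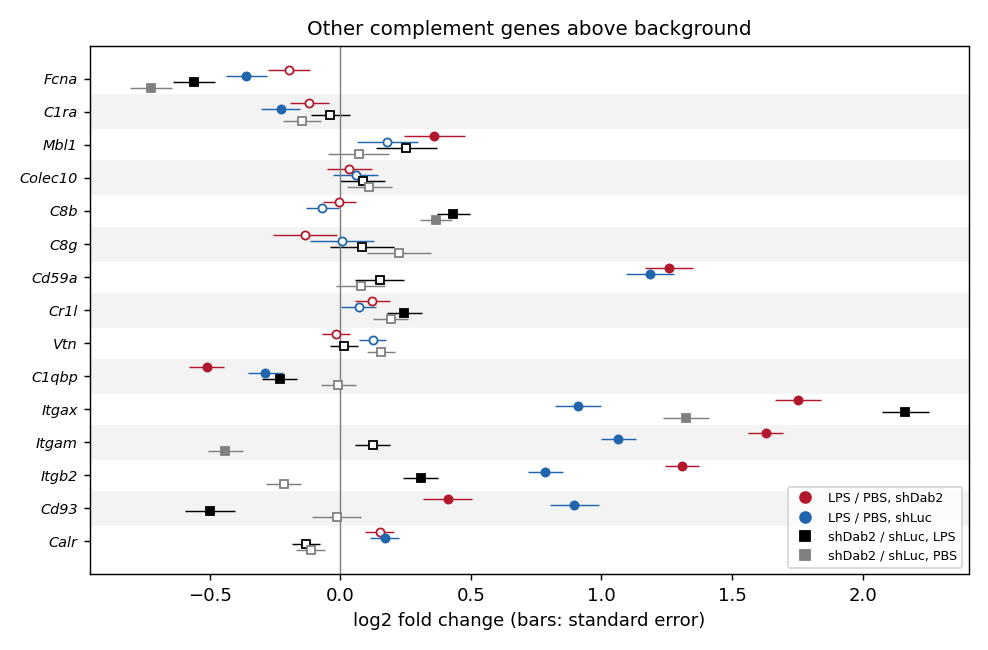
Log2 fold changes (horizontal axis) with standard errors of the 15 listed complement genes other than the members that reached 50 on some array, in 4 comparisons, with filled symbols for calls at an adjusted p under 0.05. Itgax, Itgam, Itgb2 and Cd59a lie to the right for LPS in both lines, and Itgax is the highest for shDab2 over shLuc cells with LPS.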

How the data were processed

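Total RNA of RAW264.7 cells was labelled with Cy5 and hybridized to Phalanx mouse OneArray arrays, 2 for each of 4 groups. The values the authors deposited per array are linear intensities of 26423 probes, with background apparently subtracted, since some lie below 0. Software and normalization are not given in the sources used here. A second deposited table holds group means and was not used. Intensities were quantile-normalized, 50 was added and the log2 was taken, because the medians of the deposited arrays differ (20 to 37). One limma 3.58.1 model (R 4.3.3) with 4 group means, no replicate block and a variance trend (4 residual and 6.70 prior degrees of freedom) was fitted to all probes, with Benjamini-Hochberg adjustment over 26423 probes. The script was tested on simulated data, with changes placed only in brighter probes and only in shDab2 cells with LPS. That test did not cover changes in dim genes.

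A gene is represented by its brightest probe, and a group is at background when both arrays lie under 50. Symbols come from the platform annotation and positions from RefSeq on GRCm38.p6, matched by Entrez ID. Every measured member was named, other complement genes when called with a log2 fold change of at least 0.5 (some named from their levels), and the 3 genes nearest in profile to each member. Members, lists and tests were chosen with earlier results of these data known. Alternatives changed the scaling, the added value, the dim probes, the variance model, the arrays, the block and the test. A comparison of protein sequences was planned and not run. The number of arrays limits the precision.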

Additional observations from a re-analysis of the deposited data

Results flagged for a closer look

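The LPS response of 2 members differed between the lines in the limma test of the difference. The difference, shDab2 minus shLuc on the log2 scale, was 1.93 for Cfb (adjusted p = 2.89e-06) and -0.55 for C3ar1 (adjusted p = 0.00937). It was also called for 3 integrin genes of the complement receptors, at 0.84 for Itgax (adjusted p = 0.00304), 0.56 for Itgam (adjusted p = 0.00602) and 0.52 for Itgb2 (adjusted p = 0.0088). In all 5 genes the arrays with LPS lay above those with PBS in each line, but for Cfb the rise in shLuc cells (0.23, adjusted p = 0.0489) was called in 6 of 17 alternatives and was 0.07 (adjusted p = 0.614) without normalization between arrays. With a floor of 50 in place of the added 50, Cfb alone of these 5 was still called.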

How the results depend on the processing

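The fold changes recomputed were those of Cfb, Cfp, C3ar1 and C5ar1 and those called at 0.5 or more in size of other complement genes. They kept their direction under the alternatives of the limma fit, except 2 values near 0 with PBS. C5ar1 in shDab2 over shLuc cells was 0.055 without normalization between arrays, and C3ar1 lay between -0.023 and 0.078 when 1 array was left out. Without normalization, 2 members were called between the lines with PBS (2 higher), and of the other complement genes 14 were called there and 15 for LPS in shDab2 cells. The study's methods name a t-test in general and describe the arrays by fold changes. With such a t-test run on the arrays here and Benjamini-Hochberg adjustment, 2 members were called for LPS in shLuc cells and 0 between the lines with PBS or with LPS. Unadjusted, it called 2 with PBS. With a floor of 50, 1 member, Cfb, was called for the difference in response. When 1 array was left out, 6 to 9 other complement genes were called for LPS in shLuc cells, with 6 without shLuc PBS replicate 1, and 4 to 7 between the lines with LPS, with 4 without shDab2 LPS replicate 1 or shLuc LPS replicate 2. Arrays with the same replicate number did not deviate together (r from -0.148 to 0.140 over 9889 probes). With that number as a replicate block, 3 members were called for LPS in shLuc cells (4 without it), Cfb being lost, and 4, 1, 3 and 2 were called in shDab2 cells with LPS, between the lines with PBS and with LPS, and for the difference. The t-test and the fit on the arrays of 1 comparison gave no value for the difference, and counts of other complement genes were recomputed under part of the alternatives. Dim signal limits C1q, C5ar1 and Cd93.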

Other observations

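The 4 hepatocyte markers (Alb, Apoa1, Ttr and Fgb) lay between -4 and 26, and many complement genes known as liver products were also under 50 on all arrays, among them C6, C8a, C9, Hc, Mbl2 and Cfi. Others on the list went the other way, among them Mbl1 (94.5 to 173), C1ra (175.5 to 228.5) and Colec10 (88.1 to 108.5), at or above 50 on all 8 arrays. The probes of C8b and Vtn, also known as liver products, were bright. C8b, a chain of the terminal pore, was between 1054 and 1497 on the 8 arrays, and it was higher in shDab2 than in shLuc cells with LPS (0.43 on the log2 scale, limma's adjusted p = 0.000556) and with PBS (0.37, adjusted p = 0.00334). Vtn, vitronectin, was between 2541.5 and 2917. Each was read by 1 probe, whose sequence is not given in the files used here. These genes were picked out after their values had been seen.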
